A study of Mus musculus with 6 samples.

Results

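Glutathione, NRF2 and antioxidant genes were followed as a set of 41 genes in the bulk transcriptome of mouse hepatocytes before and during liver regeneration. The list names the members by gene symbol and role, with no threshold on their values, and was drawn up with earlier results of these data known. It holds 21 glutathione S-transferases, 4 enzymes that make or reduce glutathione, 3 glutathione peroxidases and 3 other detoxification enzymes (Nqo1, Hmox1 and Ephx1). The rest are 5 enzymes of the thioredoxin and peroxiredoxin cycle, 3 genes for superoxide dismutases and catalase, and the regulator pair Nfe2l2 and Keap1. All 41 were found among the 55450 genes counted, and 40 of them were tested, the test being limited to the 17037 genes whose count reached 10 in 3 libraries or more. The remaining member, Mgst2, had at most 3 counts in any library.

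The study isolated hepatocytes by collagenase perfusion and sequenced their RNA in bulk. The mice were C57BL/6 by the labels and male C57BL/6J by the study's methods, and ate a normal diet. The labels give an age of 10 to 12 weeks at surgery, and the methods give a somewhat younger range. The 3 libraries of the 0 h group came from undamaged livers, and the 3 libraries of the 48 h group came from livers taken 48 h after partial hepatectomy (PHx), the surgical removal of part of the liver that starts regeneration in the rest. Whether the 0 h mice had a sham operation is not given in the sources used here, so the response to surgery and the response to loss of liver mass cannot be told apart. Each library held 31419443 to 36346220 reads assigned to genes, and 3 reads, taken as the detection floor, were worth 0.0840 to 0.102 CPM (counts scaled to 1e6 per library after TMM normalization, the scale of every CPM given here).

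Glutathione is a small thiol peptide that the liver makes in large amounts and uses to detoxify reactive compounds and peroxides. Glutathione S-transferases couple it to reactive molecules, glutathione peroxidases spend it to reduce peroxides, and glutathione reductase returns the oxidised form to the reduced one. Many of these enzymes are induced by the transcription factor NRF2, which the adaptor KEAP1 marks for degradation until oxidants or electrophiles modify KEAP1, and which then binds antioxidant response elements in promoters together with small MAF proteins.

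The core of that element, written here as TGACNNNGC and read on both strands, was looked for in the RefSeq promoter windows of the members (GRCm38.p6, 250 bases before to 50 after the annotated start), because NRF2 acts through it and the members moved in both directions. Of 35 members with a window, 10 held the letters (28.57%), against 1831 of 10954 tested genes with a window (16.72%) and 3781 of all 27025 genes with one (13.99%). Counted by window, 4071 of 32851 held them (12.39%). Among members with a window, the letters were found in 4 of 12 that rose, 3 of 12 that fell and 3 of 10 that did not pass the test. Over all genes tested with a window they were found in 434 of 2651 that rose (16.37%) and 356 of 2108 that fell (16.89%). A match is a description of letters and not a binding site. The stretches of 5 members that touch no annotated exon follow 5′ to 3′ on the gene's strand with the match in capitals. They show the letters beside 2 genes that rose (Prdx1 and Txnrd1), 1 that fell (Gsta3) and 2 that did not pass the test (Gclm and Sod1). All 5 genes lie on the plus strand.
Prdx1, chr4:116685436-116685504: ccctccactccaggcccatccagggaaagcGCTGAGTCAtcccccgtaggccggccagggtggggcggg
Txnrd1, chr10:82859084-82859152: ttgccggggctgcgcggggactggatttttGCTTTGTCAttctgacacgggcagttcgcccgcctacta
Gsta3, chr1:21240434-21240502: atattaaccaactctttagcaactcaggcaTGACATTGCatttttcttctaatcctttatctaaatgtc
Gclm, chr3:122245393-122245461: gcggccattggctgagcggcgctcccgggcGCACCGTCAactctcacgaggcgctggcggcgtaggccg
Sod1, chr16:90220676-90220744: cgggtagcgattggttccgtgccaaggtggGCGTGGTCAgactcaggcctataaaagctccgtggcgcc
The match begins 133 bases before the start in Prdx1, 92 in Txnrd1 (an alternative start), 121 in Gsta3, 134 in Gclm and 56 in Sod1. In Gsta3 the core reads as written on the gene's strand, and in the other 4 it lies on the opposite strand. The letters were also present in the windows of Gstm5, Gstm7, Mgst1, Nfe2l2 and Srxn1.

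At 48 h, 14 of the 40 members tested were higher (35.0%) and 13 were lower (32.5%), with an adjusted p below 0.05 in edgeR's quasi-likelihood test over all genes. Over all 17037 genes tested, 21.4% were higher and 19.3% were lower. The median log2 fold change of the members was -0.10, against -0.0033 over all genes tested. With scaling by library size alone, 17 members were higher and 8 lower. Among the 21 transferases, 4 were higher and 10 lower of 20 tested, with a median of -0.40 on the log2 scale. Among the other 20 members, 10 were higher and 3 lower, with a median of 0.23. Gsta1 and Gpx3 met the count minimum only through the 48 h libraries, where they were high, so their calls are descriptions. Among the 38 members that met it in every library, 12 were higher and 13 lower. A log2 fold change of at least 1 in size was reached by 8 of the higher members (6 without Gsta1 and Gpx3) and 4 of the lower ones. The share of all genes tested that reached this size was not counted, so these numbers are descriptions. In bulk samples, fewer cells of a type and less RNA per cell cannot be told apart, so each change is one of relative RNA level. Under that scaling by library size the median of all genes tested was 0.20, and all directions given here are relative to the bulk of genes under TMM scaling, a normalization that takes most genes as unchanged.

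**Figure D1:**
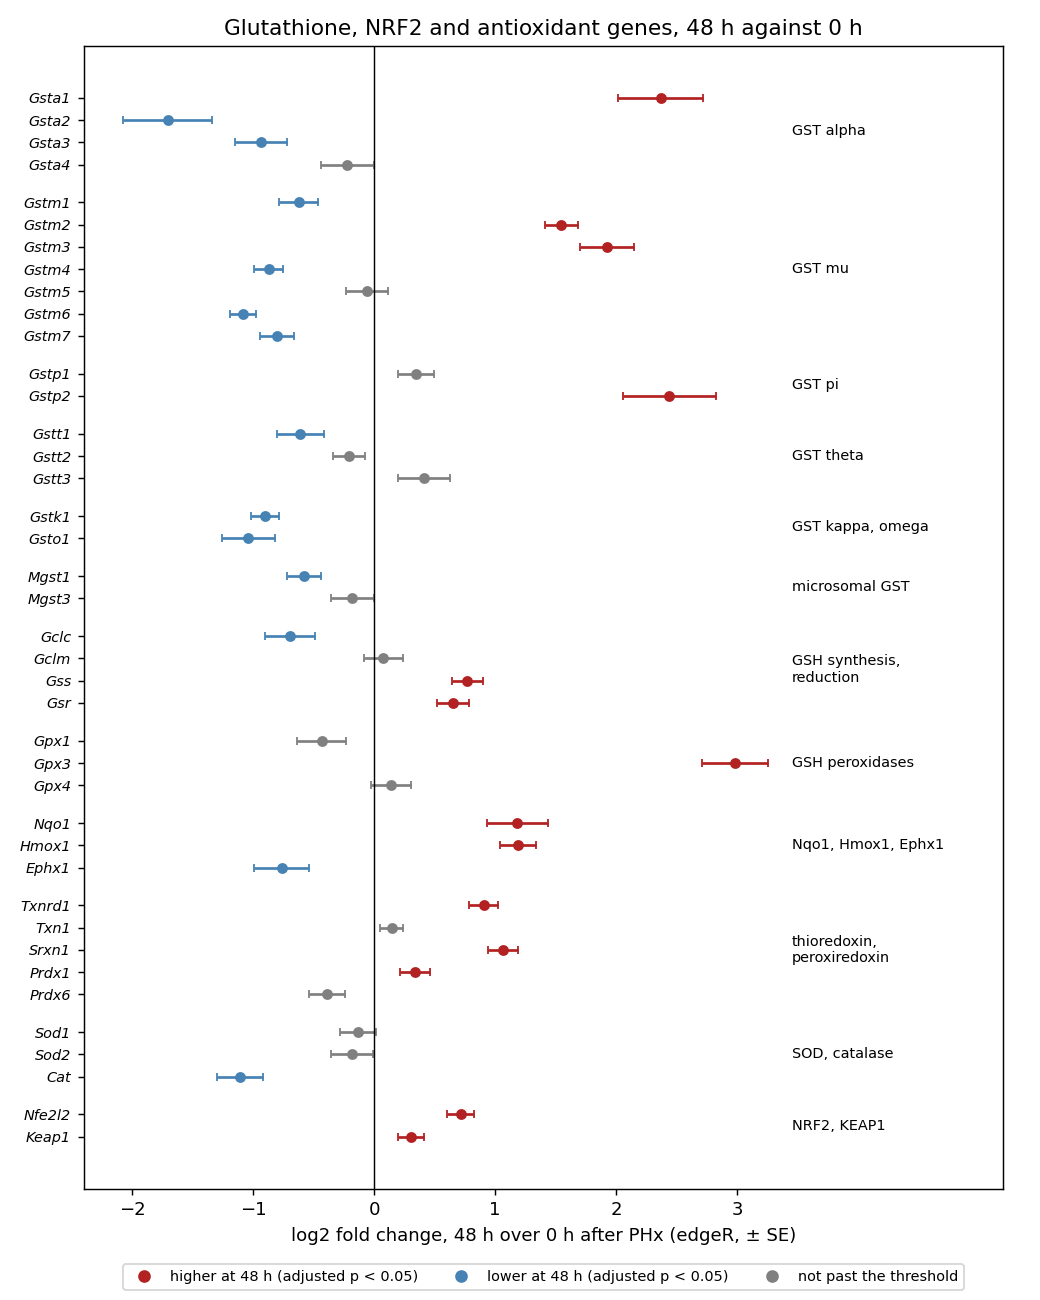
Log2 fold change at 48 h over 0 h (x axis, edgeR, points with SE) for the 40 members tested, grouped by role on the y axis and coloured by the test at an adjusted p of 0.05. Points lie on both sides of 0 in the alpha and mu classes, from -1.71 for Gsta2 to 2.37 for Gsta1, and the member with the highest value is Gpx3 at 2.98.

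The libraries of a group were not interchangeable for these genes. Of the 39 members with a mean of at least 1 CPM, 33 had their lowest 0 h value in the second library (84.6%, against 44.4% of the 13332 genes tested with such a mean). That library also had the highest share of reads in no gene, 32.7%, against 25.1 to 29.3% in the other two 0 h libraries and 24.3 to 27.9% at 48 h, and the part of this in the results was not tested. At 48 h, 24 members had their lowest value in the first library (61.5%, against 34.2%), 12 in the third and 3 in the second. The coefficient of variation between libraries of one group had a median of 16.5% at 0 h and 10.7% at 48 h over these members. Without the second 0 h library, 12 members were called higher and 15 lower.

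By level per exon length, given as CPM per kilobase, catalase, a mu class transferase and a microsomal transferase led the set in undamaged liver. At 0 h, Cat stood at 1057 ± 212 CPM per kilobase (SD, n = 3), Gstm1 at 973 ± 173 and Mgst1 at 913 ± 57.0, and the ranges of these neighbours overlapped. Gpx1 (669 ± 182) and Gstp1 (618 ± 85.7) followed, again with overlapping ranges, and Ephx1 (367 ± 71.9) and Gsta3 (152 ± 19.6) stood apart from the genes above and below them. At 48 h, Gstp1 headed the order at 785 ± 30.3 CPM per kilobase, above every library of the next gene, Gstm1 (631 ± 48.7). Gstm1 overlapped with Mgst1 (612 ± 40.7), and Gpx1 (496 ± 52.9) overlapped with Cat (490 ± 60.2). Gstm3 moved from the tenth place at 0 h (77.8 ± 21.4) to the sixth at 48 h (295 ± 57.9), where its range overlapped with that of Ephx1 (216 ± 64.3). Summed over all 41 genes, the members were at 12119 ± 1832 CPM at 0 h and 9245 ± 732 CPM at 48 h under TMM scaling, with every 48 h library below every 0 h library. As a share of gene counts without that scaling they took 1.13 ± 0.151% and 0.993 ± 0.119%, and the 2 groups of libraries overlapped.

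**Figure D2:**
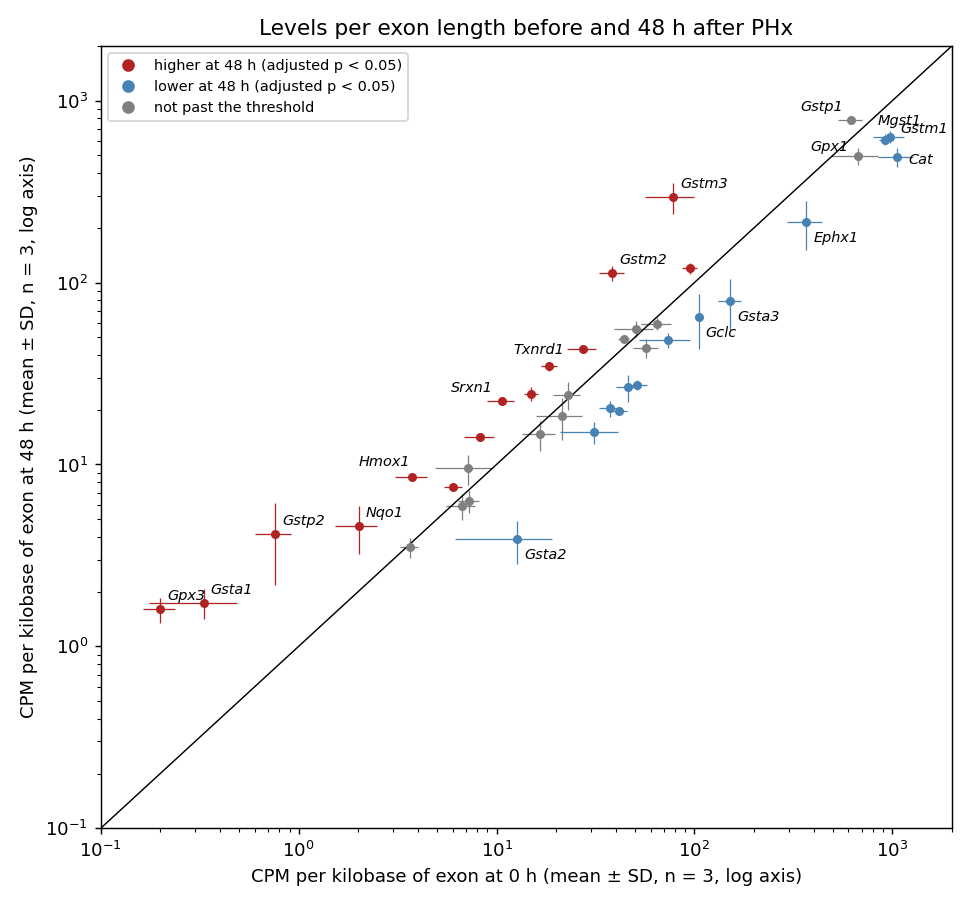
Mean level at 48 h against mean level at 0 h in CPM per kilobase of exon (both log axes, bars are SD, n = 3) for the 40 members tested, coloured by the test; the line marks equal levels. Cat, Gstm1, Mgst1, Ephx1 and Gsta3 lie below the line at the abundant end, Gstm3 and Gstm2 above it, and Gpx3, Gsta1 and Gstp2 lie above it at the lowest levels.

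The alpha class transferases conjugate a wide range of electrophiles and also reduce organic hydroperoxides. Gsta3, the class member that protects the mouse from aflatoxin, stood at 662, 571 and 742 CPM in the 0 h libraries and at 238, 454 and 343 CPM at 48 h. All 48 h libraries were below all 0 h libraries, and the log2 fold change was -0.93 ± 0.215 (SE, adjusted p = 0.00602). Gsta2 was at 16.3, 6.68 and 21.8 CPM at 0 h and at 3.18, 5.54 and 4.94 CPM at 48 h, a log2 fold change of -1.71 ± 0.367 (adjusted p = 0.00405). The groups did not overlap, although the second 0 h library lay much nearer to the 48 h values than the other two. Gsta1, which falls below the level set for naming and is given here because of its sequence, was at 0.194 to 0.482 CPM at 0 h and 1.37 to 1.99 CPM at 48 h, or 8, 6 and 16 counts and then 46, 71 and 57 counts. Its fitted log2 fold change was 2.37 ± 0.351, with only 1 of 3 libraries at 0 h reaching the count minimum. Of its 100-base transcript stretches, 80.6% also occur in another gene, mostly in Gm3776, and Gsta2 shares 28.4% of its own (49.8% of its 50-base stretches). Because of the shared sequence, the split of reads between Gsta1, Gsta2 and Gm3776 is uncertain. Gm3776 had 8, 7 and 9 counts at 0 h and 42, 66 and 46 counts at 48 h. Their summed level was 15.5 ± 7.80 CPM at 0 h and 7.69 ± 1.80 CPM at 48 h, with overlapping groups. Gsta4, which detoxifies lipid aldehydes, ranged from 19.1 to 32.3 CPM at 0 h and from 17.7 to 29.9 CPM at 48 h and did not pass the test (log2 fold change -0.22 ± 0.220).

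The 7 mu class genes lie side by side on chromosome 3, within chr3:107895821-108044894 (GRCm38, GENCODE M21), and did not move together. In the order of their starts they are Gstm5, Gstm7, Gstm6, Gstm3, Gstm2, Gstm1 and Gstm4. The adjacent genes Gstm3 and Gstm2 rose, while Gstm7 and Gstm6 on one side and Gstm1 and Gstm4 on the other fell. Gstm3 was at 113, 70.1 and 123 CPM at 0 h and at 402, 454 and 304 CPM at 48 h (log2 fold change 1.92 ± 0.221, adjusted p = 8.13e-05). Gstm2 was at 60.6, 58.2 and 75.2 CPM and then at 189, 207 and 170 CPM (1.55 ± 0.136 on the log2 scale, adjusted p = 1.3e-05). In both genes every 48 h library exceeded every 0 h library by a wide margin. Gstm1, the most abundant class member, was at 1486, 1155 and 1657 CPM at 0 h and 862, 921 and 1005 CPM at 48 h (log2 fold change -0.62 ± 0.163, adjusted p = 0.0116). Its groups did not overlap, but its call was lost when the third 0 h library was left out (-0.52, adjusted p = 0.0512) and with scaling by library size alone (-0.42, adjusted p = 0.0648).

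The other mu class genes that fell were 3 of moderate level. Gstm6 stood at 87.1, 73.6 and 88.1 CPM at 0 h and 37.7, 38.9 and 40.8 CPM at 48 h (log2 fold change -1.08 ± 0.107, adjusted p = 2.98e-05). Gstm4 stood at 61.4, 57.4 and 71.9 CPM and then at 31.0, 37.9 and 35.4 CPM (-0.87 ± 0.121, adjusted p = 0.000277). Gstm7 went from 70.4, 66.6 and 85.3 CPM to 50.7, 39.4 and 37.3 CPM (-0.80 ± 0.142, adjusted p = 0.00129). In none of these did the groups overlap. Gstm5 stayed between 3.89 and 5.09 CPM in all 6 libraries, with a log2 fold change of -0.06 ± 0.175. The class as a whole summed to 1825 ± 315 CPM at 0 h and 1626 ± 67.5 CPM at 48 h with overlapping groups, and as a percentage of gene counts it went from 0.170 to 0.174, the opposite direction. Within the sum, Gstm1 accounted for 78.5% at 0 h and 57.2% at 48 h. Of the 100-base stretches, 13.8% in Gstm3, 5.86% in Gstm1 and at most 5.58% in the others occur in another gene. Of the 50-base stretches, 28.8% in Gstm3, 18.9% in Gstm1 and at most 9.44% in the others do.

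Of the pi class, Gstp1 was at 976, 815 and 1078 CPM at 0 h and at 1165, 1257 and 1225 CPM at 48 h. Every 48 h library was above every 0 h library, yet the difference did not pass the test (log2 fold change 0.35 ± 0.146, adjusted p = 0.0842). It was called higher by DESeq2 (adjusted p = 0.0401) and with scaling by library size alone (0.55, adjusted p = 0.0121). Gstp2 rose from 0.647, 0.935 and 0.965 CPM to 6.60, 2.24 and 5.09 CPM (log2 fold change 2.44 ± 0.384, adjusted p = 0.000618). Its 48 h libraries all lay above the 0 h ones but differed among themselves, the second being the lowest. Gstp2 shares 46.9% of its 100-base stretches with other genes and Gstp1 shares 25.1%, so the counts of Gstp2, far below its neighbour in level, are uncertain. Gstp3, a class member outside the set, was at 20.1, 12.1 and 14.4 CPM and then at 26.8, 33.8 and 33.3 CPM (1.01 ± 0.179, adjusted p = 0.00127).

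The remaining transferases fell or did not pass the test. Mgst1, a membrane-bound transferase and peroxidase of the endoplasmic reticulum and mitochondria, was at 1812, 1740 and 1964 CPM at 0 h and 1202, 1324 and 1168 CPM at 48 h (log2 fold change -0.58 ± 0.138, adjusted p = 0.00729). The groups were well apart, and the call was lost only with scaling by library size alone (-0.37, adjusted p = 0.0546). Gstk1, the kappa class enzyme of mitochondria and peroxisomes, went from 73.6, 66.5 and 85.2 CPM to 38.9, 43.2 and 38.6 CPM (-0.90 ± 0.116, adjusted p = 0.000174). Gsto1, an omega class enzyme that reduces dehydroascorbate, went from 70.6, 39.5 and 77.9 CPM to 26.1, 34.3 and 31.1 CPM (-1.04 ± 0.218, adjusted p = 0.00354). Both were lower in every 48 h library, with the second 0 h library of Gsto1 close to the 48 h range. Gstt1, a theta class enzyme that acts on small halogenated compounds, was at 122, 76.6 and 139 CPM at 0 h and 66.4, 74.2 and 80.4 CPM at 48 h (-0.61 ± 0.191, adjusted p = 0.027). Its groups overlapped, and the call was lost without the first or the third 0 h library, and without the first or the second 48 h library (adjusted p from 0.0666 to 0.104), and with scaling by library size alone (adjusted p = 0.114).

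Gstt2 (23.7 to 33.8 CPM), Gstt3 (19.2 to 44.4 CPM) and Mgst3 (5.74 to 8.53 CPM) did not pass the test. Gstt3 was called higher without the third 0 h library (log2 fold change 0.66, adjusted p = 0.0252), with scaling by library size alone (adjusted p = 0.0255) and with no filter on low counts (adjusted p = 0.0458). All transferases together made up 0.524 ± 0.0580% of gene counts at 0 h and 0.501 ± 0.0491% at 48 h, with overlapping groups. Transferases are among the enzymes that differ along the liver lobule, so lobule markers are given beside them. The 10 pericentral genes summed to 9439 to 11597 CPM at 0 h and 4131 to 6635 CPM at 48 h, a sum led by Cyp2e1, but 4 of the 10 were called higher (40%, against 21.4% of all genes tested) and 2 lower (20.0%, against 19.3%). The 10 periportal genes summed to 13951 to 16916 CPM and to 9469 to 16072 CPM, with 4 called lower (40%) and the other 6 not past the threshold. The part of zonation in the transferase changes was not tested.

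**Figure D3:**
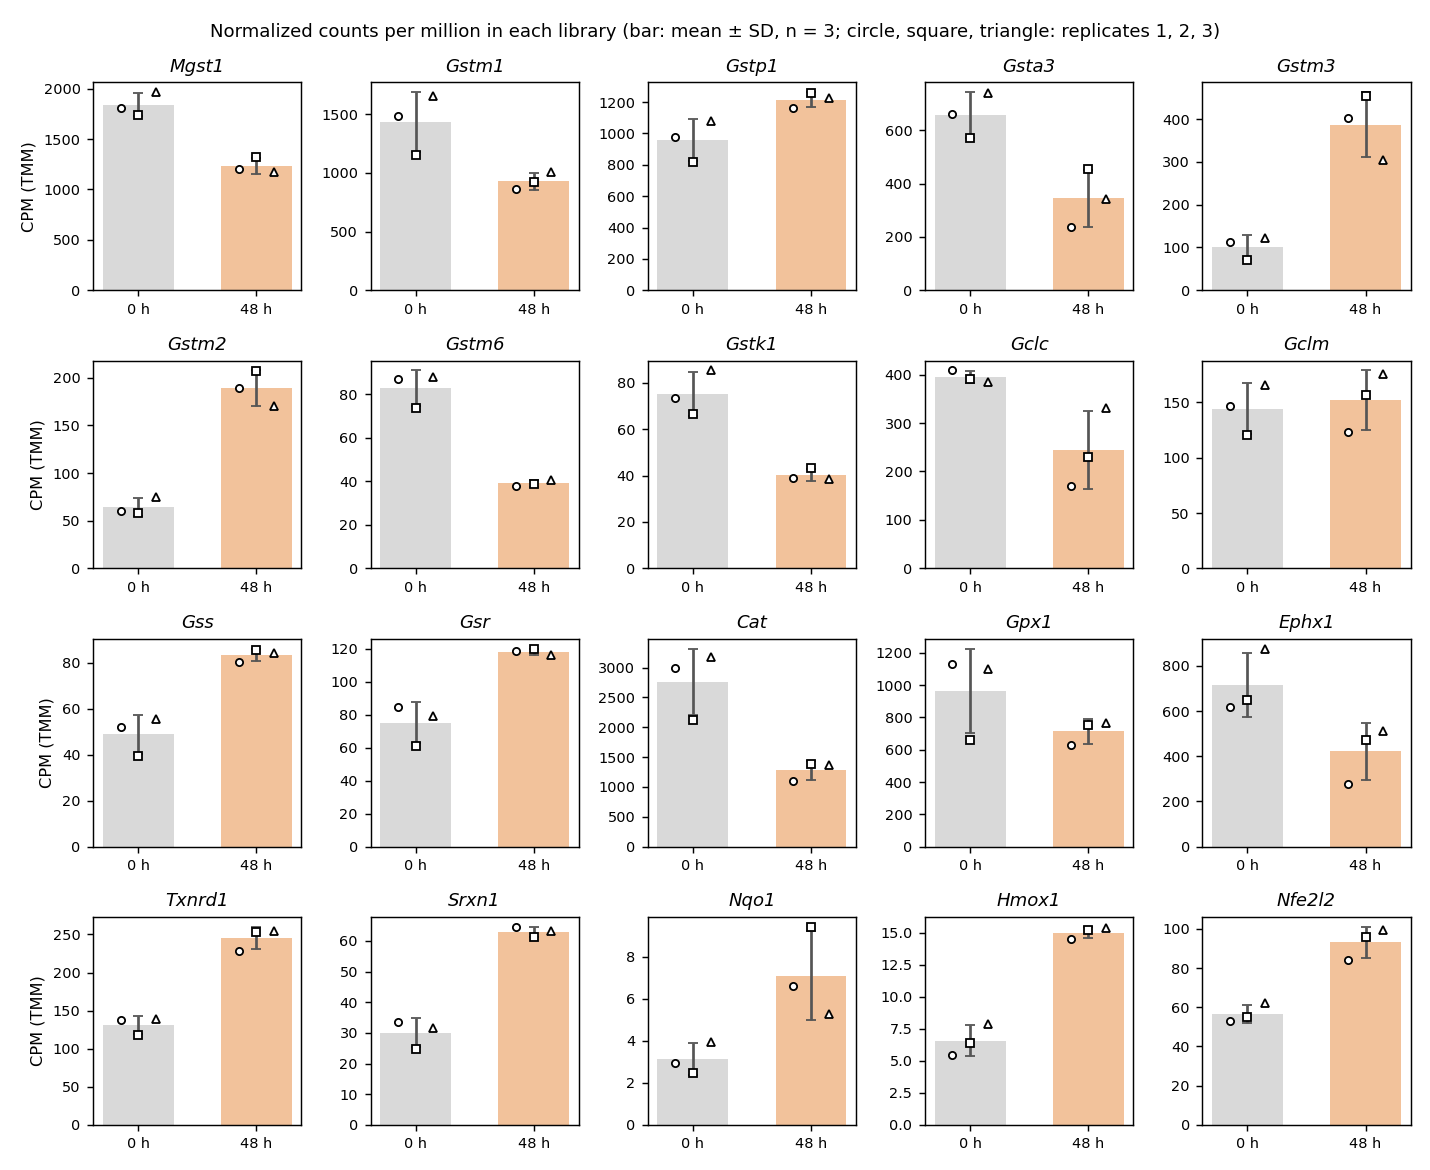
TMM-normalized CPM (y axes from 0, one scale per gene) of 20 members in each library at 0 h and 48 h; bars are means with SD (n = 3) and symbols mark replicates 1 to 3. The 48 h libraries of Gstm2, Gstm3, Gss, Gsr, Txnrd1, Srxn1, Nqo1, Hmox1, Nfe2l2 and Gstp1 lie above all 0 h libraries, while those of Mgst1, Gstm1, Gsta3, Gstm6, Gstk1, Gclc, Cat and Ephx1 lie below them.

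Genes of glutathione synthesis and reduction went in different directions. Gclc, the catalytic subunit of glutamate-cysteine ligase and the rate-limiting step of glutathione synthesis, was at 408, 392 and 385 CPM at 0 h and at 171, 231 and 332 CPM at 48 h. The 0 h libraries were nearly equal, and the 48 h libraries were all lower and widely spread (log2 fold change -0.69 ± 0.206, adjusted p = 0.0213). Its call was lost without the first 0 h library (adjusted p = 0.0577), without the second 48 h library (adjusted p = 0.0705) and with scaling by library size alone (adjusted p = 0.105). Gclm, the modifier subunit of the same ligase, was at 146, 120 and 166 CPM and then at 123, 157 and 176 CPM, with overlapping groups and a log2 fold change of 0.07 ± 0.161 whose sign changed with the upper quartile scaling. Gss, glutathione synthetase, rose from 51.8, 39.3 and 55.3 CPM to 80.2, 85.5 and 84.2 CPM (0.77 ± 0.132, adjusted p = 0.00103). Gsr, glutathione reductase, rose from 84.9, 61.2 and 79.5 CPM to 119, 120 and 116 CPM (0.65 ± 0.131, adjusted p = 0.00271). In both, the 48 h libraries were close together and above all 0 h libraries. Genes on the opposite strand cover 15.4% of the exon bases of Gss, and whether counting used strand is not given in the sources used here.

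Among the glutathione peroxidases, the 3 members differed by orders of magnitude in level. Gpx1, the cytosolic enzyme, was at 1130, 662 and 1100 CPM at 0 h and 627, 752 and 764 CPM at 48 h. The second 0 h library fell among the 48 h libraries, and the gene did not pass the test (log2 fold change -0.43 ± 0.203, adjusted p = 0.114). Without that library it did (-0.65, adjusted p = 0.00699). Gpx4, which reduces lipid hydroperoxides in membranes, ranged from 66.0 to 105 CPM at 0 h and from 85.1 to 104 CPM at 48 h (0.14 ± 0.163, not passing the test). It shares 25.2% of its 100-base stretches with other genes. Gpx3, the secreted plasma enzyme, was at 0.375, 0.290 and 0.422 CPM and then at 2.67, 2.60 and 3.40 CPM. Its fitted log2 fold change of 2.98 ± 0.270 was the highest of the set, and the groups were far apart at a low level, with 11, 9 and 14 counts at 0 h.

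Both quinone and heme detoxifying NRF2 targets rose, and the epoxide hydrolase fell. Nqo1, which reduces quinones, was at 2.96, 2.45 and 3.95 CPM at 0 h and at 6.60, 9.43 and 5.29 CPM at 48 h (log2 fold change 1.18 ± 0.250, adjusted p = 0.00363). Hmox1, which breaks down heme, was at 5.49, 6.39 and 7.87 CPM and then at 14.5, 15.2 and 15.3 CPM (1.19 ± 0.151, adjusted p = 0.000155). All 48 h libraries were above all 0 h libraries in both genes. Hmox1 is also expressed by Kupffer cells, the liver macrophages. The 11 Kupffer cell markers summed to 82.7 to 124 CPM at 0 h and 119 to 146 CPM at 48 h, with overlapping groups and 3 of 11 called higher (27.3%, against 21.4% of all genes tested), Marco by 3.19 ± 0.200 on the log2 scale, Cd5l and Cd68. The defining marker Clec4f was at 10.5 to 18.6 CPM and 12.2 to 17.0 CPM. The part of Kupffer cells in the Hmox1 change was not tested. Ephx1, microsomal epoxide hydrolase, fell from 620, 651 and 876 CPM to 279, 474 and 513 CPM (-0.76 ± 0.227, adjusted p = 0.0216). Its groups did not overlap, but the call was lost without the third 0 h library (-0.60, adjusted p = 0.0849) and with scaling by library size alone (-0.54, adjusted p = 0.0878).

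In the thioredoxin and peroxiredoxin cycle, 3 of 5 members rose, against 21.4% of all genes tested, and the other 2 did not pass the test. Of the 3, Prdx1 lost its call under 11 of 16 alternatives. Txnrd1, the cytosolic thioredoxin reductase, was at 137, 118 and 139 CPM at 0 h and at 229, 253 and 255 CPM at 48 h (log2 fold change 0.90 ± 0.119, adjusted p = 0.000194). Srxn1, sulfiredoxin, which repairs over-oxidised peroxiredoxins, was at 33.7, 24.7 and 31.6 CPM and then at 64.5, 61.2 and 63.1 CPM (1.07 ± 0.124, adjusted p = 8.74e-05). Both had 48 h libraries in a narrow band above all 0 h libraries. Prdx1, a peroxiredoxin reduced by thioredoxin, moved less, from 286, 266 and 313 CPM to 351, 393 and 351 CPM (0.34 ± 0.124, adjusted p = 0.0488). Its groups did not overlap, but its call was lost when any 1 of the 6 libraries was left out (adjusted p from 0.0589 to 0.164). Prdx6, a peroxiredoxin that draws on glutathione, was at 280, 232 and 313 CPM and then at 187, 236 and 207 CPM. It narrowly missed the threshold with overlapping groups (-0.39 ± 0.146, adjusted p = 0.0557) and was called lower under 6 of 16 alternatives, among them DESeq2 (adjusted p = 0.0305) and the fit without the second 0 h library (-0.51, adjusted p = 0.0163). Txn1, cytosolic thioredoxin, was at 42.8 to 48.2 CPM at 0 h and 50.6 to 51.5 CPM at 48 h, with a log2 fold change of 0.15 ± 0.096 that did not pass the test. With scaling by library size alone it was called higher (0.35, adjusted p = 0.0167).

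Of the enzymes that remove superoxide and hydrogen peroxide, catalase fell. Cat, the peroxisomal catalase, was at 2986, 2129 and 3169 CPM at 0 h and at 1099, 1380 and 1361 CPM at 48 h. Every 48 h library was below every 0 h library (log2 fold change -1.11 ± 0.186, adjusted p = 0.000938). Cat and Gpx1 are abundant in red cells, whose 7 markers summed to 56.1 to 86.7 CPM at 0 h and 18.8 to 40.5 CPM at 48 h. Nearly all of that sum was Alas2, and the globin genes had means of at most 0.161 CPM at either time. The part of red cells in the Cat and Gpx1 values was not tested. Sod1, the cytosolic superoxide dismutase, was at 284, 206 and 285 CPM and then at 214, 249 and 243 CPM. Sod2, the mitochondrial one, was at 180, 130 and 189 CPM and then at 176, 143 and 120 CPM. Both overlapped between groups and did not pass the test, with log2 fold changes of -0.13 ± 0.149 and -0.19 ± 0.175 that turned positive with scaling by library size alone.

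The regulators themselves were both higher at 48 h, by different amounts. Nfe2l2, which encodes NRF2, was at 53.2, 55.0 and 62.0 CPM at 0 h and at 84.2, 95.6 and 99.5 CPM at 48 h (log2 fold change 0.71 ± 0.112, adjusted p = 0.000595). The groups were well apart. Keap1 was at 31.7, 25.7 and 27.9 CPM and then at 35.9, 35.5 and 33.8 CPM (0.30 ± 0.108, adjusted p = 0.0456). Its groups did not overlap, but the call was lost under 11 of 16 alternatives. It was lost without any 1 library except the first 0 h library (adjusted p from 0.063 to 0.125). DESeq2 (adjusted p = 0.0758) and a fit with the replicate number as a block (adjusted p = 0.0768) were among the others that lost it. Genes on the opposite strand cover 10.9% of its exon bases. RNA levels do not measure NRF2 protein, which is controlled largely by degradation.

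The other genes of these pathways, taken from lists of 93 gene names outside the set, had called shares near those of all genes. Of these names, 1 had no gene in the annotation and 8 were not tested. Of 84 tested, 15 were higher (17.9%, against 21.4% of all genes tested) and 20 lower (23.8%, against 19.3%), with a median log2 fold change of -0.05. In the list of other glutathione genes, 4 of 18 tested rose and 4 fell (22.2% each way), again near the shares over all genes. Ptgr1, a reductase of lipid aldehydes and prostaglandins also counted among NRF2 targets, was at 0.852, 0.806 and 0.844 CPM at 0 h and 5.77, 5.40 and 3.92 CPM at 48 h (2.59 ± 0.229). Gstcd, a gene with a transferase-like domain, rose by 1.33 ± 0.175 on the log2 scale. Chac1, which degrades glutathione, fell from 9.40, 5.13 and 5.12 CPM to 1.01, 0.784 and 1.77 CPM (-2.46 ± 0.341). Glo1, which with glutathione detoxifies methylglyoxal, went from 145, 138 and 148 CPM to 60.1, 60.8 and 66.2 CPM (-1.21 ± 0.103). All 4 had groups that did not overlap. Slc7a11, the cystine importer and an NRF2 target in many cells, was at most 0.178 CPM in any library and was not tested.

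Of the other thiol and peroxide genes, 4 of 22 tested rose (18.2%, against 21.4% of all genes) and 7 fell (31.8%, against 19.3%). Gpx7, a peroxidase of the endoplasmic reticulum, rose by 2.59 ± 0.218 and the methionine sulfoxide reductase Msrb3 by 1.53 ± 0.138 on the log2 scale. Txnip, which binds and inhibits thioredoxin, went from 56.8, 69.1 and 57.6 CPM to 10.3, 19.5 and 16.7 CPM (-1.98 ± 0.202). Sephs2, needed to make selenocysteine, had a log2 fold change of -0.95 ± 0.173. Of the other NRF2 targets, 5 of 23 tested rose (21.7%) and 7 fell (30.4%). The largest falls there were those of the conjugate exporter Abcc3, from 614, 777 and 759 CPM to 212, 217 and 215 CPM (-1.74 ± 0.137), the aldehyde oxidase Aox1 (-1.03 ± 0.254) and the malic enzyme Me1 (-0.88 ± 0.192). Among 16 partners of NRF2 and genes of its degradation, 2 rose (12.5%) and 3 fell (18.8%), both below the shares over all genes. The related factor Nfe2l3 rose from 1.06, 1.26 and 1.18 CPM to 4.52, 4.20 and 2.43 CPM (1.67 ± 0.270), while the repressor Bach2 (-1.44 ± 0.275), the small MAF gene Mafg (-0.69 ± 0.102) and the related factor Nfe2l1 (-0.40 ± 0.104) fell. Of 8 xenobiotic and nuclear receptors, 1 was called higher (12.5%, against 21.4% of all genes) and the other 7 did not pass the test. The receptor called was Ahr, the aryl hydrocarbon receptor (0.98 ± 0.144). The adjusted p of the genes called and named in these lists was at most 0.0112.

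**Figure D4:**
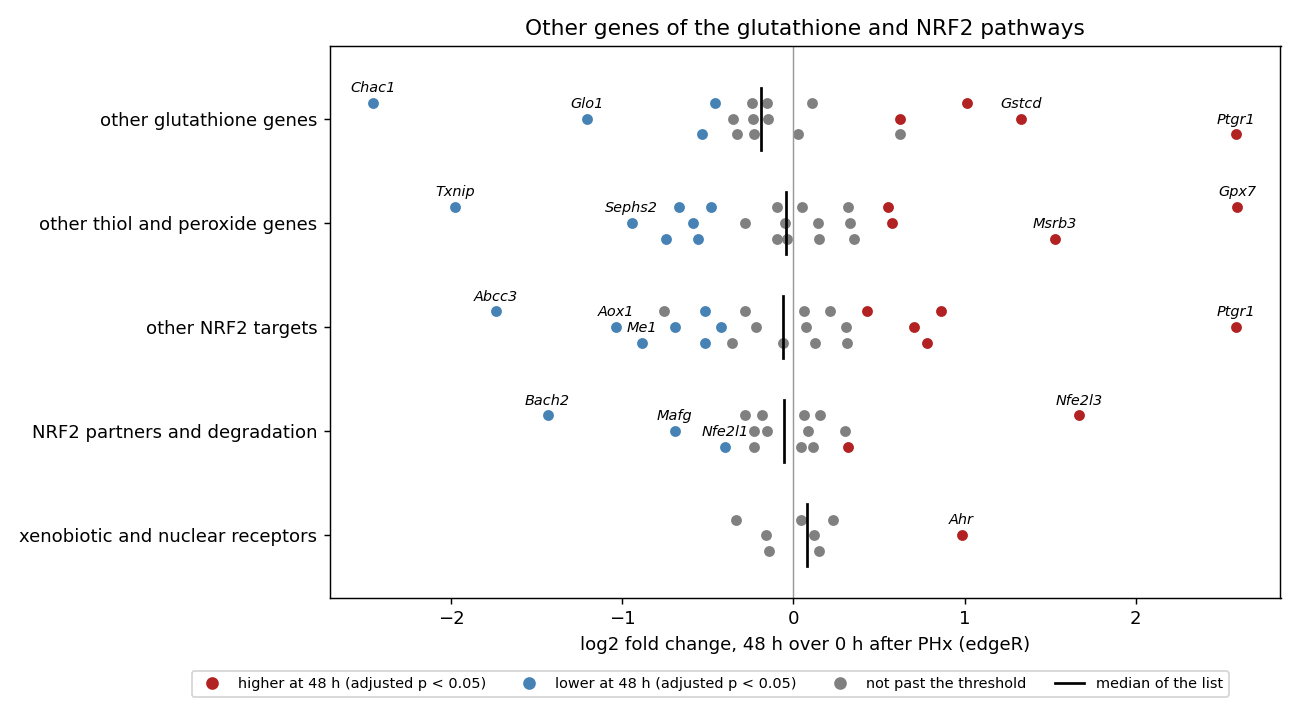
Log2 fold change at 48 h over 0 h (x axis, edgeR) of the genes tested in 5 lists of other pathway genes, one point per gene, coloured by the test, with black bars at each list's median. The medians lie between -0.19 and 0.08, and the named genes are those with the largest changes past the threshold; Ptgr1, Mafg and the unlabelled Sqstm1 are in 2 lists.

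The labelled cell type was present by its markers: 15 hepatocyte genes summed to 116318 to 134583 CPM at 0 h and 81041 to 108502 CPM at 48 h. Of these 15, 2 were called higher (Fga and Fgb), 6 lower and 7 neither, and the leading gene, Alb, went from 63605 ± 8923 to 35100 ± 4032 CPM. RNA of other liver cells was also detected. The paper, by deconvolution of its bulk RNA with cell type signatures, reported that nearly all cells in each replicate were hepatocytes. The 12 endothelial markers summed to 296 to 453 CPM at 0 h and 206 to 230 CPM at 48 h. All 12 were called lower, against 19.3% of all genes tested. The 10 stellate markers summed to 66.9 to 110 and 60.0 to 71.0 CPM. Of 9 tested, 1 was higher and 1 lower (11.1% each way, below the shares over all genes). The 8 cholangiocyte markers summed to 35.3 to 63.5 and 47.9 to 59.6 CPM, with 2 of 4 tested higher (Spp1 and Muc1). Muc1 had 9, 7 and 5 counts at 0 h and 32, 35 and 36 counts at 48 h. It met the count minimum only through the 48 h libraries, where it was high, so its call is a description. The 8 neutrophil markers summed to 0.0904 to 0.409 and 0.654 to 1.06 CPM, and Mpo and Ltf were at 0 in all 6 libraries. Their part in the member changes was not tested.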

How the data were processed

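Hepatocytes of 3 mice per time point were sequenced in bulk. The authors' processing notes name FastQC 0.11.5, Trim Galore 0.6.4, STAR 2.6, HTSeq 0.12.4 and DESeq2, and the deposited values are raw read counts per gene, 1 file per library. Gene names came from GENCODE M21 (55450 of 55450 identifiers matched). Lines for reads in no gene (24.3 to 32.7%) or ambiguous (4.27 to 5.29%) were left out of library sizes; the remaining summary lines (not aligned, low quality, not unique) held 0. Strand setting was not given in the sources used here.

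Counts were fitted across the genes whose count reached 10 in 3 libraries or more (edgeR 4.0.16, TMM, quasi-likelihood, time as the only term, Benjamini-Hochberg, threshold 0.05), a fit tested on simulated data. CPM are TMM-normalized, and levels between genes are CPM per kilobase of merged exon. SEs are the size of the log2 fold change over the square root of F. p-values measure the spread between 3 libraries per group, and the detection floor covers counting error only. Members, gene lists and tests were chosen with earlier results of these data known. Members with a mean of at least 100 CPM, or an adjusted p under 0.05 and a mean of at least 1 CPM, are given per library, the others by range. Of each pathway list, at most 4 genes with the largest change past the threshold and a mean of at least 1 CPM are named, and Gsta1, Gm3776, Gstp3 and Slc7a11 were named after their values were seen. Shared sequence was counted as exact matches of 100 or 50 bases between annotated transcripts. Alternatives were DESeq2 1.42.0, limma-voom (limma 3.58.1), 5 other scalings, 2 other filters, a replicate block and leaving out each library. Replicate numbers were not treated as pairs, since the 0 h and 48 h libraries came from different mice. Correlations of same-numbered libraries were 0.0335, -0.0674 and -0.138, and those of differently numbered ones ranged from -0.0486 to 0.132.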

Additional observations from a re-analysis of the deposited data

How the results depend on the processing

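Under 16 alternatives, 20 of the 27 members called kept their call and direction wherever they were tested, Gsta1 not being tested with a minimum of 50 counts. Those that lost it under at least 1 alternative were Keap1, Prdx1, Gstt1, Gclc, Ephx1, Gstm1 and Mgst1. Members called higher numbered 14 by edgeR, DESeq2 and limma-voom and 12 with the upper quartile, and those lower 13, 14, 13 and 14. With scaling by library size alone, 17 were higher and 8 lower. With a log2 fold change of at least 1 required, 8 were higher and 4 lower, with no share over all genes counted at that size. Leaving out 1 library gave 12 to 13 higher and 10 to 15 lower. A fit with the replicate number as a replicate block gave 12 higher and 13 lower, losing Keap1 and Prdx1. The block changed no other call of a member. Over all genes tested, library size alone gave 5309 higher and 2108 lower, against 3638 and 3288.

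Members that did not pass the test changed sign in places. With library size alone Gstm5 was at 0.14, Sod2 at 0.0121, Sod1 at 0.0743 and Mgst3 at 0.0266 on the log2 scale, and with the upper quartile Gclm was at -0.0025. Leaving out 1 library gave -0.154 to 0.0402 for Gstm5, -0.0492 to 0.205 for Gclm and -0.0341 to 0.290 for Gpx4. Apart from the alternatives' own scaling or fewer libraries, the cause was not tested. Mgst2, at 3 counts or fewer per library, was below the count minimum and was not tested.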
